A study of Mus musculus with 5 samples.

Results

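Classical monocytes were picked from single-cell RNA sequencing of mouse blood mononuclear cells by the unique molecular identifiers (UMIs, 1 per captured RNA molecule) that each cell barcode held. A member had at least 1 UMI each of Ly6c2 and Ccr2, at least 3 of Lyz2, and at least 2 of the 5 genes Vcan, Chil3, F13a1, Fn1 and Ms4a6c detected. It had at most 2 of the 6 non-classical monocyte genes Pparg, Cd300e, Ace, Adgre4, Treml4 and Ear2 detected, and no UMI of Cd79a or Cd3e. Among 62028 barcodes with at least 200 genes and a mitochondrial share under 10%, 1349 were members (2.17%). The raw UMIs of these 16 genes chose the members, so the levels of these genes are given as a description and without a test.

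Classical monocytes leave the bone marrow through the chemokine receptor CCR2 and enter inflamed tissue, where they become macrophages or dendritic-like cells. In mouse blood they carry Ly6C on their surface, and part of them convert into patrolling non-classical monocytes, which depend on the transcription factor NR4A1. Obesity and hypertension are known to raise their output and their inflammatory activity.

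The animals were C57BL/6N mice, used to model heart failure in which the ejection fraction is preserved. Control mice ate chow (libraries chow 1 and chow 2). For 15 weeks the other mice received high-fat food together with L-NAME, which blocks nitric oxide synthases (libraries HFD + L-NAME 1 and 2). Some of these also received nitro-oleic acid, an electrophilic fatty acid abbreviated NO2-OA, during the last 4 weeks (1 library, called NO2-OA 1 here, which thus carries the diet and L-NAME too). Blood cells were taken from a density gradient after which red cells were lysed, and they were frozen and thawed before droplet capture. The labels do not say whether a library is 1 animal or a pool, so p-values measure only the spread between these libraries, which may be technical. Age and sex are not given in the sources used here.

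The members numbered 251 in chow 1, 221 in chow 2, 254 in HFD + L-NAME 1, 78 in HFD + L-NAME 2 and, as the most, 545 in NO2-OA 1. Their median depth was 11398 to 17307 UMIs, above the 5949 to 7315 of all kept barcodes, and their summed UMIs ran from 1404207 (HFD + L-NAME 2) to 8104689 (NO2-OA 1). Libraries shared 28 to 77 barcodes pairwise (0.282% to 0.613% of the smaller library), and no member barcode was shared. The heat-shock gene Hspa1b stood at 5790 normalised CPM (a gene's share of the members' UMIs scaled to a fixed total, with edgeR's TMM factors; without these factors it is written CPM alone) in the members of chow 1 and 17.2 in those of chow 2, against 1045 to 2057 in the other libraries. Erythroid marker genes summed to 9353 CPM in the members of chow 1 and 52.7 in those of chow 2, and to 303 to 7975 in the other libraries. Predicted doublets were 15.9% of members in chow 1, 1.81% in chow 2, 1.18% in HFD + L-NAME 1, 8.97% in HFD + L-NAME 2 and 10.5% in the NO2-OA library. The chow libraries stood apart from each other, and HFD + L-NAME 2 held the fewest cells, so the results below name the libraries on which they rest.

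The rule itself chose members with Ly6c2 and Ccr2 and with few non-classical genes such as Cd300e. The levels of these genes are thus a description, and only genes outside the rule bear on the label. Ly6c2 stood at 1003 and 699 CPM in chow, at 604 and 837 under the regimen (the high-fat diet with L-NAME) and at 567 in NO2-OA 1, against 35.5 to 56.3 in non-classical monocytes (2382 barcodes with Csf1r, at least 3 of the non-classical genes and no Cd79a or Cd3e). Ccr2 stood at 412 and 953, at 822 and 609, and at 956 CPM in the same order. Ly6c2 was thus highest and Ccr2 lowest in chow 1. Among genes that the rule did not use, Cd14 and Mgst1 were higher in members than in non-classical monocytes in every library, and Cd36 and Itgax, genes of non-classical monocytes, were lower. Ly6c1, the other gene of the Ly6C antigen, had no more than 2 UMIs in any library's members. Cd300e stood at or below 0.81 CPM in members and at 173 to 305 in non-classical monocytes.

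Among the 8 genes that spoke for membership, Vcan and Chil3 varied most between libraries. Vcan, the matrix proteoglycan versican, stood at 266 and 162 CPM in chow, at 999 and 382 under the regimen and at 1100 in NO2-OA 1. It was detected in 53.0%, 49.8%, 85.4%, 78.2% and 95.4% of members in that order. Chil3, a chitinase-like secreted protein, stood at 246 and 642, at 1806 and 827, and at 1125 CPM. For both genes the chow libraries lay below all others, whereas F13a1, coagulation factor XIII subunit A, overlapped between the groups at 782 to 1266 CPM. Many barcodes lay near the limits of the rule. Members with exactly 1 Ly6c2 UMI numbered 152, and 242 barcodes failed the rule for want of a Ly6c2 UMI alone. Members with exactly 1 Ccr2 UMI numbered 55, and 48 barcodes failed for want of Ccr2 alone. Another 81 barcodes failed because they held 3 of the non-classical genes.

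**Figure D1:**
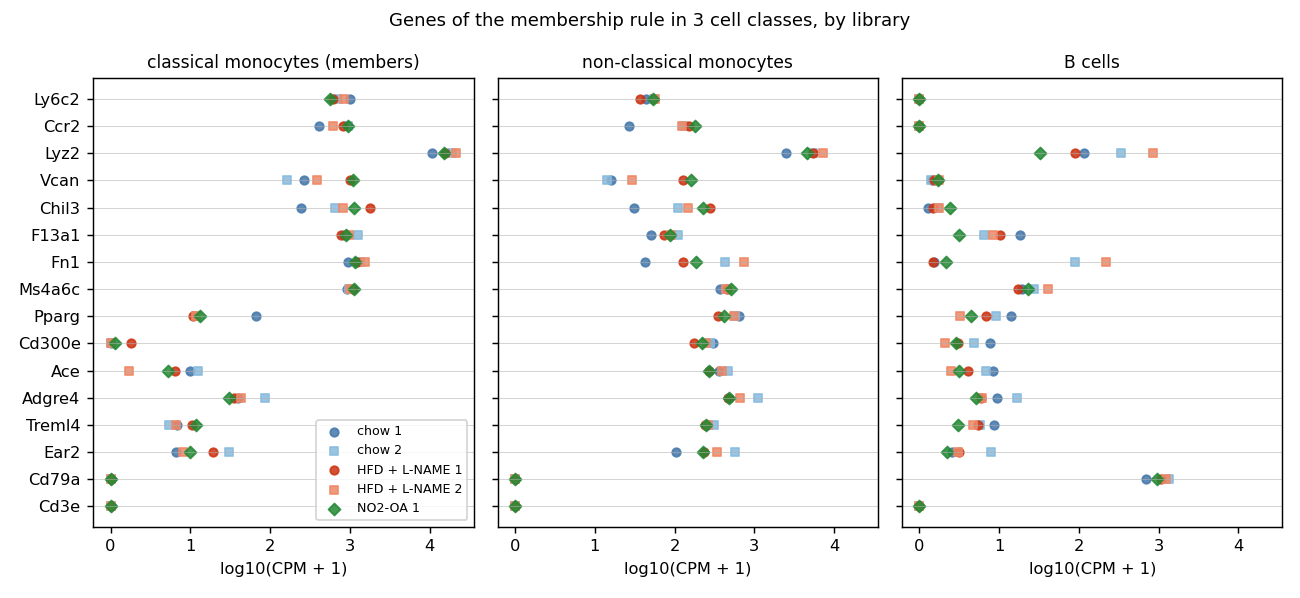
Level of each gene of the membership rule in classical monocytes, non-classical monocytes and B cells, as log10(CPM + 1), with 1 point per library. Ly6c2 and Ccr2 are at 0 in B cells because these were chosen without them, and Vcan and Chil3 spread widest between libraries among the genes that marked the members.

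The share of classical monocytes among kept barcodes did not separate the regimen from chow. It was 1.45% (exact Clopper-Pearson 95% interval 1.28% to 1.64%) in chow 1 and 2.07% (1.81% to 2.36%) in chow 2. It was 2.13% (1.88% to 2.41%) in HFD + L-NAME 1 and 1.01% (0.803% to 1.26%) in HFD + L-NAME 2. The HFD + L-NAME libraries thus lay on either side of the chow libraries. The log2 ratio of the mean shares was -0.16, with p = 1 in a two-sided exact permutation test of 2 against 2 libraries, whose smallest possible p is 0.333. Within replicate number 1 the log2 ratio was 0.55 and within number 2 it was -1.03, and over monocytes alone it was 0.25. Intervals cover counting error only.

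The largest share was in the NO2-OA library, at 3.76% (3.46% to 4.09%). Its log2 ratio to the mean of the HFD + L-NAME libraries was 1.26, against a pooled standard deviation of 0.593 between the log2 shares of libraries of 1 group. This difference in share was not tested. The ratio was 0.82 against HFD + L-NAME 1 alone, the library of the same number, and 1.89 without it. Of all classical and non-classical monocytes, members made up 24.9% and 27.4% in chow, 38.5% and 23.8% under the regimen and 58.9% in NO2-OA 1. With every barcode thinned to 3000 UMIs the shares of kept barcodes were 0.943%, 1.67%, 1.4995%, 0.876% and 2.96%, so NO2-OA 1 remained the highest.

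**Figure D2:**
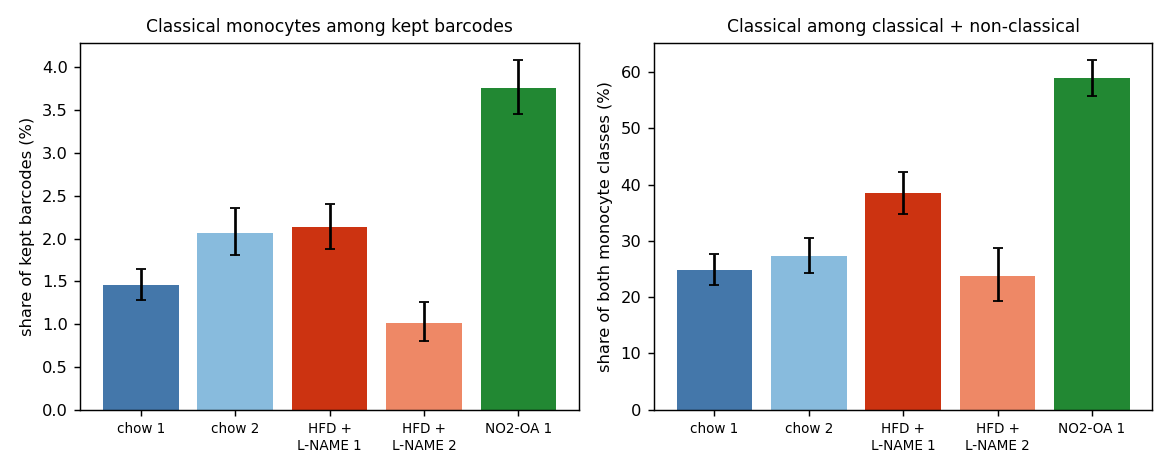
Share of classical monocytes in each library, among all kept barcodes (left) and among classical plus non-classical monocytes (right), in percent with exact 95% intervals for counting error. The NO2-OA library stands at 3.76% and 58.9%, and the HFD + L-NAME libraries at 2.13% and 1.01% of kept barcodes lie on either side of both chow libraries.

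Under high-fat diet with L-NAME, the metallothionein gene Mt2 rose in classical monocytes, and Fhit and Ccl5 fell. These were the genes called at an adjusted p under 0.05 among 11166 tested (3 genes, 0.0269%), by edgeR's quasi-likelihood test with Benjamini-Hochberg adjustment on UMIs summed per library. DESeq2 called 15, and 435 genes had an unadjusted p under 0.05 in edgeR. Mt2, which binds zinc and other metals, stood at 1.68 and 1.35 normalised CPM in chow, 22.1 and 15.3 under the regimen and 27.5 in NO2-OA 1. The log2 fold change was 3.63 ± 0.48 (SE, the fold change over the square root of the test statistic; adjusted p = 0.0438 in edgeR). At 5000 UMIs per cell an Mt2 UMI was found in 1.63%, 0.909%, 7.14%, 4% and 10.1% of members, and in at most 0.482% of B cells. Without thinning the shares of members were 1.99%, 1.81%, 13.4%, 7.69% and 17.8%. In HFD + L-NAME 2 the 22 Mt2 UMIs lay in 6 cells, and 5 of these held 95.5% of them. In that library Mt2 stood at 15.7 CPM in members, below 22.6 in non-classical monocytes and 30.2 over all kept barcodes. In HFD + L-NAME 1 it stood at 21.1 CPM in members, 2.23 in non-classical monocytes and 2.02 over all kept barcodes.

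The call for Mt2 was lost without HFD + L-NAME 1 and without NO2-OA 1, with log2 fold changes of 3.30 and 3.597. Its more abundant neighbour Mt1 stood at 209.9 and 108 normalised CPM in chow, 850.3 and 411 under the regimen and 997 in NO2-OA 1. The groups did not overlap, and the log2 fold change of 1.99 ± 0.45 did not pass the test (adjusted p = 0.833 in edgeR). An Mt1 UMI was found in 42.4%, 30.5%, 75%, 58.7% and 85% of members at 5000 UMIs per cell, and in at most 4.08% of B cells. Unthinned, these shares were 61.4%, 49.3%, 85.4%, 73.1% and 94.1%. In HFD + L-NAME 2 Mt1 stood at 419 CPM in members and 412 over all kept barcodes. In HFD + L-NAME 1 it stood at 810 CPM in members and 75.3 over all kept barcodes.

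Fhit, a dinucleoside hydrolase, stood at 33.97 and 38.4 normalised CPM in chow, 2.84 and 6.27 under the regimen and 7.72 in NO2-OA 1. The log2 fold change was -3.14 ± 0.44 (adjusted p = 0.0438 in edgeR). In the chow libraries 5 cells held 59.4% and 55.3% of its UMIs. At 5000 UMIs per cell a Fhit UMI was found in 6.12%, 6.36%, 0.794%, 4% and 2.8% of members and in 14.7% to 27.0% of B cells. Unthinned, the members' shares were 11.6%, 12.7%, 3.94%, 5.13% and 4.95%. The thinned shares of members were below those of B cells in these libraries, and the difference was not tested. Lower values of Fhit under the regimen were also found outside the members. Over all kept barcodes it stood at 141 and 159 CPM in chow and 62.8 and 95.6 under the regimen. Non-classical monocytes were at 22.8 and 40.1, and 5.96 and 19.4, in the same order. B cells overlapped between the groups, at 145 and 176, and 81.1 and 148. Ccl5, a chemokine of lymphocytes and activated macrophages, stood at 28.6 and 24.3 normalised CPM in the members of chow, 0.567 and 2.79 under the regimen and 8.36 in NO2-OA 1 (log2 fold change -4.32 ± 0.60, adjusted p = 0.0438 in edgeR). Of its UMIs in chow, 97.6% and 95.8% lay in 5 cells. When predicted doublets were left out, or members with neutrophil, T or NK cell genes, too few Ccl5 UMIs were left to test it. Both calls were lost without HFD + L-NAME 1 (-2.54 for Fhit and -3.25 for Ccl5) and without NO2-OA 1 (-3.15 and -4.32). The Fhit call was also lost with predicted doublets left out (-2.79, adjusted p = 0.257 in edgeR, with 4 other genes called), and it held in 10 of 18 settings. T cell markers summed to 128 and 18.7 CPM in the members of chow and 11.6 and 7.83 in those of the regimen, and NK cell markers to 44.1, 11.2, 0.81 and 1.42 CPM. Their part in the result was not tested otherwise.

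Among the named genes with higher values, signalling molecules stood first. Gab1, an adaptor of growth factor receptors, stood at 28.6 and 52.3 normalised CPM in chow, 213 and 151 under the regimen and 252 in NO2-OA 1. Every library given the diet was thus well above both chow libraries. The log2 fold change was 2.18 ± 0.34 (adjusted p = 0.119 in edgeR), short of the threshold. A Gab1 UMI was found in 10.2%, 20.5%, 49.6%, 44% and 54.4% of members at 5000 UMIs per cell, and in at most 1.26% of B cells. Unthinned, the shares were 20.7%, 32.6%, 72.4%, 60.3% and 78.2%.

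Surface and cytokine signalling genes gave similar patterns, none past the test. Cd14, the co-receptor for lipopolysaccharide, stood at 324 and 238 normalised CPM in chow, 715 and 581 under the regimen and 582 in NO2-OA 1 (log2 fold change 1.21 ± 0.28, adjusted p = 0.66 in edgeR). Socs3, a feedback inhibitor of cytokine receptors, stood at 76.0 and 67.5, 155 and 164, and 211 (1.15 ± 0.25). Ccl7, a ligand of CCR2, stood at 68.6 and 76.9, 165 and 269.8, and 109 (1.57 ± 0.29), so in NO2-OA 1 it lay between chow and the regimen. Htr7, a serotonin receptor, stood at 5.05 and 2.02, 26.9 and 20.9, and 30.8 (2.76 ± 0.45), but in HFD + L-NAME 2 all 30 of its UMIs lay in 4 cells. Also higher were Sipa1l1 (1.66), Mrps28 (2.07), a mitochondrial ribosomal protein, Prtn3 (1.91), a serine protease of myeloid precursors, and Jdp2 (1.41), a repressor of the AP-1 family. In HFD + L-NAME 2 the 5 richest cells held 75.7% of the Prtn3 UMIs.

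The named genes with lower values included Ifi47 and Gbp2 of the interferon-stimulated list and Slamf7 of the dendritic-like list, both described below. Ifi47, an interferon-inducible GTPase, stood at 53.8 and 43.5 normalised CPM in chow, 18.4 and 12.5 under the regimen and 15.2 in NO2-OA 1 (log2 fold change -1.61 ± 0.33, adjusted p = 0.357 in edgeR). Gbp2, a guanylate-binding protein, stood at 39.0 and 33.4, 12.8 and 18.1, and 17.3 (-1.27 ± 0.33). Slamf7, a receptor of the SLAM family, stood at 55.2 and 53.6, 13.9 and 25.1, and 8.74 (-1.54 ± 0.34). Calhm6, in neither list, stood at 23.9 and 29.7, 8.51 and 9.06, and 11.4 (-1.61 ± 0.37). For these genes both libraries of the regimen lay below both chow libraries, and none passed the test. Fhit, given above, and Ciart, a clock gene given below, were also among them. Further ones were Serpinb10 (-1.11), Gramd3 (-1.72) and Gpr141 (-0.999), an orphan receptor that fell short of the test at 559 and 698 normalised CPM in chow, 285 and 344 under the regimen and 235 in NO2-OA 1.

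**Figure D3:**
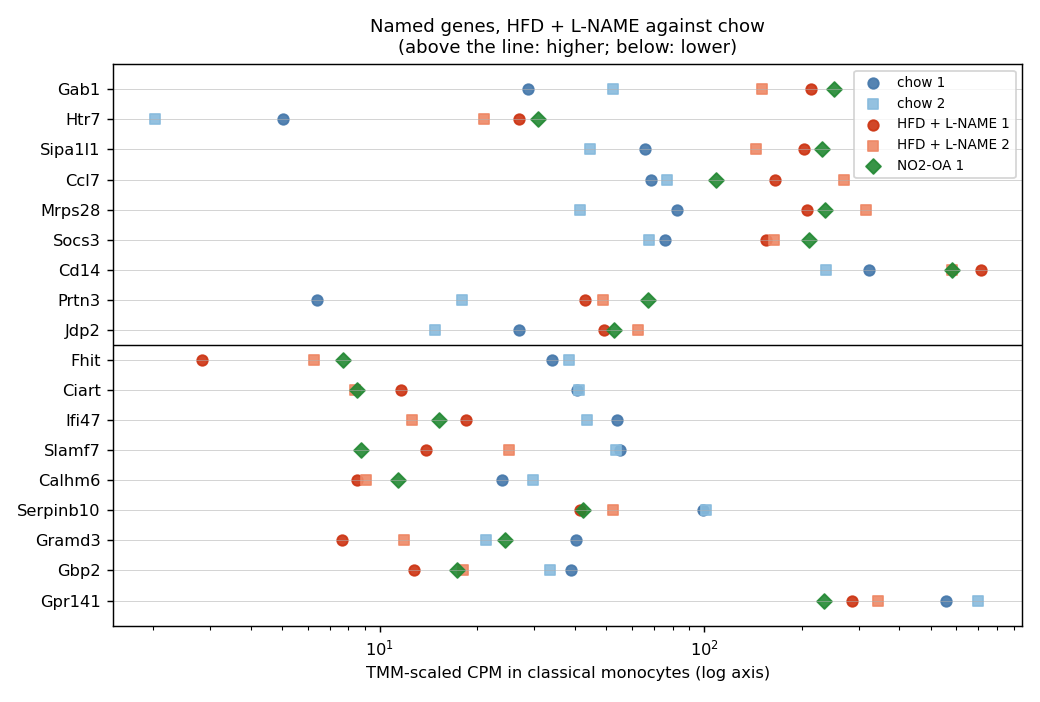
Normalised CPM of named genes in classical monocytes, 1 point per library on a log axis, with genes higher under high-fat diet and L-NAME above the line and lower ones under it. The NO2-OA library lies with or beyond the HFD + L-NAME libraries for Gab1 and Slamf7, and between the groups for Ccl7.

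Interferon-stimulated genes were mostly lower under the regimen. Of 60 listed genes 57 were tested, and 7 of them had a log2 fold change above 0, against 49.3% of all genes tested. Both HFD + L-NAME libraries lay below both chow libraries for 26 genes and above for 2, against 15.1% of all genes lower and 14.5% higher. These counts include rare members that passed edgeR's filter on low values through chow alone and so could only come out lower. Examples are Cxcl9 (3.36 and 4.38 normalised CPM in chow) and Gbp4 (4.71 and 1.01), both at 0 under the regimen. The median log2 fold change was -0.42, and none of the 57 passed the test alone. Mx1, an antiviral GTPase, stood at 38.3 and 33.4 normalised CPM in chow, 17.9 and 16.03 under the regimen and 9.12 in NO2-OA 1 (-1.07 ± 0.32). Abundant members differed little, with Ifitm3 at 0.20 ± 0.26 and Ifi27l2a at -0.03 ± 0.29. The size of the difference depended on the chow library. The median was -0.73 within replicate number 1 and -0.06 within number 2, and it was -0.13 without chow 1 and -0.75 without chow 2.

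The promoters of this list often held the sequence that interferon-activated factors bind, here searched on both strands as GAAA, any 2 bases, GAAA. It occurred in the 250 bases before the start of 23 of the 43 list members with an entry (53.5%), against 3.59% of all genes tested with an entry and 2.98% of all promoter windows. A match describes the letters and is not a measured binding site. The windows of the named genes Gbp2 and Calhm6 each held 1 match and are shown because both genes were lower under the regimen in every library. The sequences are RefSeq's for the build GRCm38.p6, which is older than the build of the counts. They run 5′ to 3′ towards the start, with the match in capitals, in Gbp2 on the opposite strand.
Gbp2, plus strand, chr3:142620413-142620662: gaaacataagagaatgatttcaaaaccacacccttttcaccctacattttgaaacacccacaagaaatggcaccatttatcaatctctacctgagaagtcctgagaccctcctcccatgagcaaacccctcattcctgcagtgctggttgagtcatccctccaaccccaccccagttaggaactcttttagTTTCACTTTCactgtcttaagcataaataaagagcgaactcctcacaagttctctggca
Calhm6, minus strand, chr10:34127973-34128222: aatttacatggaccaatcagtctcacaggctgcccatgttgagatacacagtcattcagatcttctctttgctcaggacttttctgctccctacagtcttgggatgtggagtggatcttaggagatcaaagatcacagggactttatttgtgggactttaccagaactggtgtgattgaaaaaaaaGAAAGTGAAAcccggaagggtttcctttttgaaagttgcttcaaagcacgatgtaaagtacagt
The windows of Ifi47 and Slamf7 held no match.

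Most tested genes of the circadian clock list had lower values under the regimen, and Nfil3 had higher ones. Of 20 listed genes 14 were tested, and 2 had a log2 fold change above 0, against 49.3% of all genes. Both libraries of the regimen lay below chow for 9, against 15.1% of all genes, and above it for 1, against 14.5%, and none passed the test. Ciart, a repressor within the clock, stood at 40.7 and 41.1 normalised CPM in chow, 11.6 and 8.36 under the regimen and 8.48 in NO2-OA 1 (log2 fold change -1.99 ± 0.34, adjusted p = 0.131 in edgeR). The chow libraries were nearly equal and all other libraries lay far below them. A Ciart UMI was found in 12.7%, 14.5%, 4.37%, 5.33% and 4.30% of members at 5000 UMIs per cell and 30.3%, 33%, 13.8%, 11.5% and 9.91% unthinned, with 11.6% to 26.7% of B cells carrying it. The gene was lower in B cells too, at 69.3 and 44.0 CPM in chow, 40.6 and 24.6 under the regimen and 36.4 in NO2-OA 1. In members Tef, a factor that binds clock-controlled promoters, stood at 15.1 and 13.5, 6.52 and 3.49, and 6.08 normalised CPM (-1.42 ± 0.47). Dbp, of the same family, stood at 3.70 and 7.42, 1.42 and 0.697, and 1.65 (-2.23 ± 0.90). It passed the filter on low values through chow alone, so it could only come out lower, and it is in the counts above. With equal cells per library or thinned sums it had too few UMIs to be tested.

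Nfil3, which represses the targets of Dbp and Tef, stood at 148 and 138 normalised CPM in chow, 193 and 206 under the regimen and 169.5 in NO2-OA 1 (0.48 ± 0.25). Per2, a core clock repressor, was at -0.73 ± 0.33, while Clock itself was at -0.03 and its partner Arntl at 0.04. The median of the list was -0.51, with -0.51 within replicate number 1 and -0.45 within number 2, and it ran from -0.77 (without chow 2) to -0.24 (without chow 1) over the alternatives. The labels give no time of day for blood collection. The E-box, CACGTG, which the CLOCK complex binds, lay in the windows of 4 of the 12 tested list members with an entry (33.3%), against 10.3% of all genes tested with an entry and 6.02% of all windows. The window of Ciart is shown because it held 3 matches, here in capitals, and this gene had the smallest p of the list. Its sequence is RefSeq's for GRCm38.p6.
Ciart, minus strand, chr3:95882229-95882478: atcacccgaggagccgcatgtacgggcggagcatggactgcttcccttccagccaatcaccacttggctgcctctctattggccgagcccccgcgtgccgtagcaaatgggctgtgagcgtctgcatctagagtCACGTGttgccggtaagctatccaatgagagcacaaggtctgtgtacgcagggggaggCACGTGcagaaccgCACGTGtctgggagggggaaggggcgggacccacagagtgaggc

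**Figure D4:**
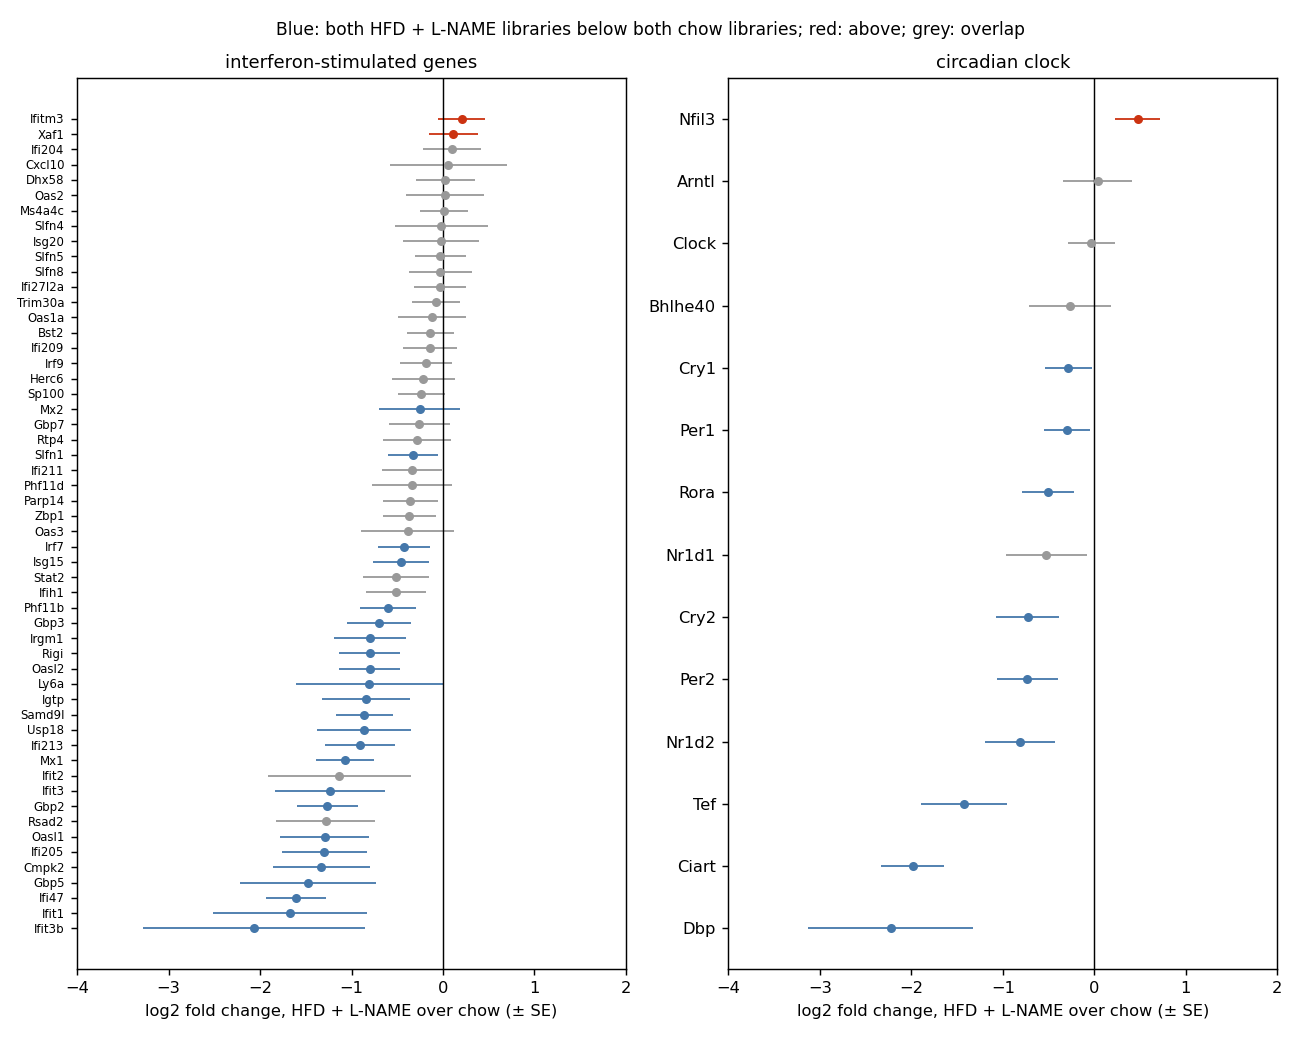
Log2 fold change ± SE of interferon-stimulated genes (left) and circadian clock genes (right) in classical monocytes under high-fat diet with L-NAME against chow, with genes whose libraries do not overlap in colour. Most clock genes lie left of 0 and Nfil3 lies right of it. Cxcl9 and Gbp4, with no UMI in either HFD + L-NAME library, are not drawn, nor is every list member shown.

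Genes of sensing, uptake and degradation were mostly higher under the regimen, by small amounts and with none past the test. Of 21 tested genes of lysosomes and proteases 17 had a log2 fold change above 0, against 49.3% of all genes, and 6 were higher without overlap, against 14.5% (median 0.37, and 0.45 and 0.11 within the replicate numbers). Mmp19, a matrix metalloproteinase, stood at 36.7 and 19.2 normalised CPM in chow, 106 and 58.6 under the regimen and 100.4 in NO2-OA 1 (1.58 ± 0.39). The lysosomal proteases Ctsd (0.64 ± 0.28) and Ctsz (0.50 ± 0.26) did not overlap either. Of 19 genes of Fc receptors and phagocytosis 15 were above 0 (median 0.28, and 0.67 and -0.04 within the replicate numbers). Complement C3 stood at 137 and 109.6, 208.7 and 171.5, and 177 (0.63 ± 0.26), and properdin, Cfp, was at 0.76 ± 0.33. The scavenger receptor Msr1 (0.53 ± 0.29) and the integrin Itgam (0.47 ± 0.27) were higher in both libraries. The median of this list was 0.04 without HFD + L-NAME 1 and 0.08 without chow 1, and that of the lysosomal list was 0.11 without HFD + L-NAME 1.

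Among pattern receptors and their signalling genes 21 of 32 were above 0, against 49.3% of all genes. Both libraries of the regimen lay above chow for 6, against 14.5% of all genes, and below for 3, against 15.1%. The median was 0.15, and 0.29 and -0.009 within replicate numbers 1 and 2. Cd14, given above, had the smallest p of this list. Tlr4, its partner in sensing lipopolysaccharide, stood at 19.2 and 6.41 normalised CPM in chow, 62.4 and 21.6 under the regimen and 50.4 in NO2-OA 1 (1.76 ± 0.70), and Trem3 was at 1.20 ± 0.38. Of 23 inflammasome, interleukin-1 and alarmin genes 16 were above 0, against the same 49.3%, and 5 were higher and 2 lower without overlap. The median was 0.23, and 0.43 and 0.04 within the replicate numbers. Il1b, interleukin-1 beta, stood at 87.8 and 43.2, 183 and 112, and 299 (1.18 ± 0.38), and its receptor subunit Il1rap was at 1.06 ± 0.34. The calcium-binding S100a11 (0.92 ± 0.33) and S100a10 (0.60 ± 0.28) were higher in both libraries. Without HFD + L-NAME 1 the medians of both lists turned to -0.0657 and -0.14. An Il1b UMI was found in 19.6%, 14.1%, 32.1%, 38.7% and 43.6% of members at 5000 UMIs per cell, in 33.2% to 64.6% of non-classical monocytes and in at most 2.31% of B cells. Unthinned, members were at 26.7%, 18.6%, 50.4%, 59% and 57.1%.

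Chemokines and secreted ligands divided. The share above 0, 12 of 23, was near the 49.3% of all genes (median 0.09), 7 were higher and 5 lower without overlap, against 14.5% and 15.1% of all genes, and Ccl5 was the called member. Without chow 2 this median was -0.27. NRF2 targets and iron genes, the list that holds the called Mt2, had 14 of 21 above 0 (median 0.23, and -0.0429 without HFD + L-NAME 1). Metallothioneins were listed there as oxidant-responsive genes, and the NRF2 targets proper did not pass the test. Among MHC class I genes 7 of 19 were above 0 (median -0.12), with the peptide transporter Tap1 at 94.2 and 62.7 normalised CPM in chow, 40.3 and 43.2 under the regimen and 38.4 in NO2-OA 1 (-0.91 ± 0.29). Its regulator Nlrc5 was at -0.77 ± 0.36, whereas the chaperone Calr was at 0.63 ± 0.28.

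Transcription factors of monocyte fate tended to lower values, with 12 of 38 above 0 against 49.3% of all genes, and 12 lower without overlap, against 15.1% (median -0.20). Pou2f2 was at -0.92 ± 0.28, Nr4a3 at -0.90 ± 0.28 and Bach2 at -0.81 ± 0.28. Nr4a1, needed for non-classical monocytes, stood at 590.3 and 432 normalised CPM in chow, 279 and 383 under the regimen and 192 in NO2-OA 1 (-0.63 ± 0.29). It was highest in the chow libraries and lowest in NO2-OA 1. The 13 other lists had medians from -0.51 (heat-shock chaperones) to 1.27 (cell cycle). Within replicate number 1 the cell cycle median was -0.12. In HFD + L-NAME 2, 1 of 75 members carried both Mki67 and Top2a UMIs at 5000 UMIs per cell, and none did in the chow libraries or HFD + L-NAME 1.

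The response of classical monocytes was then set against that of the non-classical monocytes of the same libraries. The log2 fold change under the regimen differed between the classes for 2 of 12457 genes (0.0161%) in edgeR's quasi-likelihood test of the difference, at 476 genes with an unadjusted p under 0.05 and 0 called by DESeq2. These were Retnlg, a secreted resistin-like protein of neutrophils, and the gene model Gm2682. Retnlg stood at 48.1 and 0 normalised CPM in classical monocytes of chow and 2.96 and 1.38 under the regimen, and at 36.3 and 0.596, and 74.4 and 45.9, in non-classical monocytes. The difference of log2 fold changes was -5.05 ± 0.44 (adjusted p = 0.000605 in edgeR). All 139 Retnlg UMIs of chow 1 lay in 4 members, 127 of them in 1 cell, and the difference was -0.33 without chow 1 and 0.35 with predicted doublets left out.

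For several genes named above the 2 classes gave close values. For Gab1 the difference of log2 fold changes was -0.01 ± 0.19, with a log2 fold change of 2.17 in non-classical monocytes. For Cd14 it was -0.14 ± 0.19, for Il1b 0.19 ± 0.22 and for Ciart -0.42 ± 0.38. The log2 fold change was larger in classical monocytes, though short of the test, for Sipa1l1 (difference 1.02 ± 0.19, adjusted p = 0.316 in edgeR), Jdp2 (1.18 ± 0.29) and Mki67 (1.31 ± 0.29). In HFD + L-NAME 2 a single cell held 78 of the 126 Mki67 UMIs and 5 cells held 74.6%, and with predicted doublets left out the Mki67 difference was 0.49. For other genes the log2 fold change, not the level, was lower in classical than in non-classical monocytes. They were Ptgs2, the inducible cyclooxygenase (difference -1.88 ± 0.31), Hdc (-2.12 ± 0.41), Pecam1 (-1.32 ± 0.27) and Atrnl1 (-1.11 ± 0.23). These also did not pass the test.

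NO2-OA was compared with the regimen alone on 1 library against 2, so the fit assumes that the NO2-OA library varied like the others. Its library shares the replicate number of HFD + L-NAME 1 only, so differences between the numbers enter this comparison. Of all genes, 48.6% were above 0 in this comparison, 28.7% lay above both HFD + L-NAME libraries and 27.6% below both. The fit called 3 of 11166 genes (0.0269%), all higher, with 149 genes at an unadjusted p under 0.05 and 2 called by DESeq2. They were the neutrophil granule genes Camp (cathelicidin), Ngp (neutrophilic granule protein) and Ltf (lactoferrin), with adjusted p-values of 0.000549, 0.000549 and 0.0213 in edgeR. Camp had 729 UMIs in NO2-OA 1 against 1 in both HFD + L-NAME libraries, a ratio per UMI of 459 with an exact 95% counting interval of 82.2 to 18164. For Ngp the ratio was 180.2 (49.7 to 1491) and for Ltf 110.2 (19.5 to 4379). These UMIs sat in 11, 16 and 10 of 545 members, and 5 cells held 97.1% to 99.2% of them. Neutrophil markers summed to 3120 CPM in the members of NO2-OA 1, with Ly6g at 5.55, against 205 to 684 CPM in the other libraries, where Ly6g was at 0. With predicted doublets left out, none of the 3 genes had enough UMIs to be tested, and no gene was called (edgeR, 171 genes at an unadjusted p under 0.05). Members that carried neutrophil, T or NK cell genes (96 of 545 in NO2-OA 1) were also left out, a setting chosen after the data were seen. It removes by construction every cell with a UMI of Camp, Ngp or Ltf, and no other gene was called (edgeR, 131 genes at an unadjusted p under 0.05).

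Of 27 listed genes of the neutrophil-like monocyte programme 22 were tested, and some of them, such as Camp, Ngp, Ltf and Ly6g, passed the filter on low values through the NO2-OA library alone, so no count or median over the list is given. Prtn3 and Mmp8, singled out after their values were seen because many cells carried them, were spread over many cells of NO2-OA 1, where the 5 cells with most of them held 10.5% and 9.49% of their UMIs. Prtn3 stood at 6.39 and 17.9 normalised CPM in chow, 42.8 and 48.8 under the regimen and 67.4 in NO2-OA 1. In HFD + L-NAME 2 a single cell held 45 of the 70 Prtn3 UMIs. Mmp8, neutrophil collagenase, stood at 46.4 and 86.3, 139.8 and 72.5, and 176, and its UMIs were spread over 360 of the 545 members. Prtn3 and Mmp8 were higher in NO2-OA 1 than in every other library. Cd177, of the same list, was also carried by many cells of NO2-OA 1 and went the other way. Its UMIs lay in 276 of the 545 members, and 5 cells held 7.68% of them. It stood at 71.97 and 129.2 normalised CPM in chow, 90.44 and 98.98 under the regimen and 77.49 in NO2-OA 1. Prtn3, Mmp8 and Cd177 did not pass the test.

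Genes of the dendritic-like monocyte programme were lower in the NO2-OA library. Of 23 tested genes 2 were above 0, against 48.6% of all genes. Below both HFD + L-NAME libraries lay 18, against 27.6% of all genes, and the median log2 fold change was -1.10. These values can include rare members that passed edgeR's filter on low values through the HFD + L-NAME libraries alone. Such members could only come out lower. None of the 23 passed the test alone. Cd209a, the mouse lectin DC-SIGN homologue that marks this subset, stood at 79.0 and 62.1 normalised CPM in chow, 69.5 and 86.4 under the regimen and 20.1 in NO2-OA 1. Only the NO2-OA library was low. The log2 fold change was -1.94 ± 0.36 (adjusted p = 0.394 in edgeR), and -1.76 against HFD + L-NAME 1 alone.

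The MHC class II chains were lower too. H2-Eb1 stood at 183 and 262, 207 and 270.4, and 89.6 (log2 fold change -1.41 ± 0.36). H2-Aa stood at 359.5 and 464, 401 and 512, and 191 (-1.25 ± 0.35), and H2-Ab1 at 251 and 341, 329 and 434, and 176 (-1.12 ± 0.36). Cd74, their invariant chain, stood at 1053 and 1096, 1005 and 1366, and 621 (-0.93 ± 0.35). In each case NO2-OA 1 was below all 4 other libraries. Clec10a, a lectin of the same cells, was at -1.08 ± 0.38, while Ciita, the master regulator of class II genes, was at 6.33 normalised CPM and overlapped with the 5.39 and 9.06 of the regimen.

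Other genes named by rank in this comparison were also short of the test, with adjusted p of 1 in edgeR. Higher in NO2-OA 1 were Zfp36l1, an RNA-binding protein (1.45 ± 0.41), Ifitm1 (1.86 ± 0.55), Atp11a (1.10 ± 0.34), Ano6, a lipid scramblase (0.91 ± 0.30), Glis3 (1.10 ± 0.36), Cxcl1, a neutrophil chemokine (1.21 ± 0.40, but -1.70 in a draw of 78 cells per library), and Arhgap24 (0.93 ± 0.32). Lower were Ckb, creatine kinase B (-1.47 ± 0.37), Skint3 (-1.72 ± 0.46), Zfp367 (-1.60 ± 0.47), Padi2 (-1.12 ± 0.37) and Ccl7 (-0.99 ± 0.36).

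The whole MHC class II list had 6 of 16 tested genes above 0, against 48.6% of all genes, and a median of -0.32. The dendritic-like median was -0.53 against HFD + L-NAME 1 alone and -0.54 without HFD + L-NAME 2. It was -0.49 in a draw of 78 cells per library, in which Cd209a was at -0.09 and Cd74 at -0.05. Markers of conventional dendritic cells, a list that shares genes with this one, summed to 269 and 303 CPM in the members of chow, 219 and 347 under the regimen and 137 in NO2-OA 1. Of that list, Xcr1, a defining gene of only one dendritic cell type, had no UMI in the chow and HFD + L-NAME members. Flt3, also of that list and given below, was found in the members of every library.

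A lower sum over members can come from fewer positive cells or from less RNA in each, which the sums alone cannot tell apart, so the cells were counted at 5000 UMIs each. A Cd209a UMI was found in 12.2% (30 of 245, exact 95% interval 8.42% to 17.0%) and 11.8% (7.87% to 16.8%) of members in chow. It was found in 7.54% (4.6% to 11.5%) and 17.3% (9.57% to 27.8%) under the regimen, and in 2.24% (12 of 535, 1.16% to 3.89%) in NO2-OA 1. The share of NO2-OA 1 was the lowest of the 5. The intervals cover counting error only and leave out the spread between libraries, which within the regimen alone ran from 7.54% to 17.3%, and the difference in this share was not tested. Unthinned, the shares were 15.1%, 16.7%, 8.66%, 17.9% and 2.94%. Non-classical monocytes were at 0.298% to 1.27% and B cells at or below 0.228%.

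The Cd209a-positive members formed a distinct profile in every library. They held a mean of 21.5 to 28.5 Cd74 UMIs per cell, against 1.95 to 3.79 in the other members, and 9.5 to 12.2 H2-Aa UMIs against 0.597 to 1.49. Chil3 was at 0 to 0.346 UMIs in them against 1.52 to 10.1 in the rest, and Vcan at 0 to 0.833 against 0.923 to 5.51. Flt3, of the conventional dendritic cell markers, was at 0.421 to 1.15 UMIs in them against 0.0554 to 0.177. These contrasts describe cells chosen by Cd209a and were not tested. Whether some of these cells were conventional dendritic cells that met the rule was not tested either. The level of class II RNA in the positive cells of NO2-OA 1, at 22.8 Cd74 UMIs, was within the range of the other libraries, whereas their number was low.

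Cells high in MHC class II were less unevenly spread. Members with at least 10 UMIs over 10 class II genes, a limit chosen after the data were seen, made up 21.2% and 20.9% in chow, 15.9% and 21.3% under the regimen and 13.5% (10.7% to 16.6%) in NO2-OA 1. The intervals overlapped with those of HFD + L-NAME 1 (11.6% to 21.0%) and HFD + L-NAME 2 (12.7% to 32.3%). In NO2-OA 1 these class II-high cells held 0.681 Cd209a UMIs on average, against 1.02 to 2.00 in the other libraries. They held 2.69 Il1b UMIs against 0.413 to 1.30. In the other members of NO2-OA 1, too, Cd209a was lowest (0.0216 UMIs against 0.0632 to 0.169) and Il1b highest (1.41 against 0.103 to 0.943), so neither was particular to the class II-high cells.

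**Figure D5:**
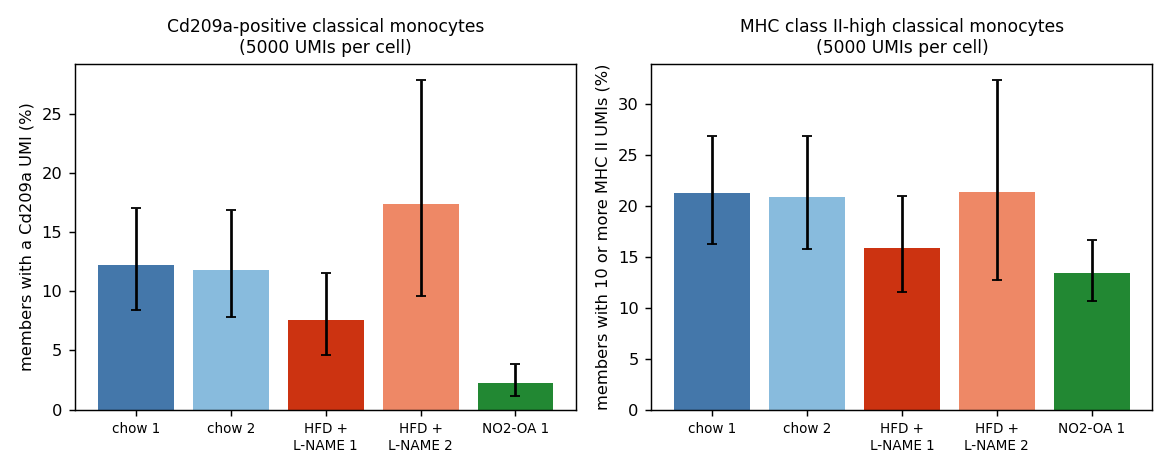
Share of classical monocytes with a Cd209a UMI (left) and with at least 10 MHC class II UMIs (right) in each library, at 5000 UMIs per cell, in percent with exact 95% intervals for counting error. The NO2-OA library is lowest in both, at 2.24% and 13.5%, and the intervals leave out the spread between libraries.

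For several genes that stood apart under the regimen, the NO2-OA library lay with the HFD + L-NAME libraries. Mt2 was at 0.53 ± 0.42 and Mt1 at 0.66 ± 0.51 relative to the regimen, Gab1 at 0.46 ± 0.38 and Socs3 at 0.40 ± 0.30, and none passed the test. Ccl7 (-0.99) and Gramd3 (1.38 ± 0.47) lay nearer to chow in the NO2-OA library, also without passing the test. Il1b was higher again in NO2-OA 1, at a log2 fold change of 1.01 ± 0.44, and Nfkbia, an inhibitor of NF-kB that NF-kB induces, stood at 793 and 812, 951 and 618, and 1361 normalised CPM (0.79 ± 0.34). Of the inflammasome and interleukin-1 list 17 of 23 were above 0, against 48.6% of all genes (median 0.19). Of the pattern receptor list 23 of 32 were above 0 (median 0.21), and 16 lay above both HFD + L-NAME libraries, against 28.7% of all genes. Without HFD + L-NAME 2 the former median was -0.0349.

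Interferon-stimulated genes were lower still in NO2-OA 1, in a comparison that shares the HFD + L-NAME libraries with the one above. Of 57 tested genes 11 were above 0, against 48.6% of all genes, and 35 lay below both HFD + L-NAME libraries, against 27.6%. The median was -0.33, and -0.28 against HFD + L-NAME 1 alone. These counts include members near the floor. Cxcl9 and Gbp4, at 0 under the regimen, could only come out higher. Ifit3b counts as lower, at 0.567 and 1.39 normalised CPM under the regimen and 0.38 in NO2-OA 1. Ifit3 stood at 15.8 and 18.6 normalised CPM in chow, 3.12 and 13.2 under the regimen and 0.886 in NO2-OA 1 (-2.99 ± 0.90). Phf11d (-1.57 ± 0.56), Xaf1 (-0.86 ± 0.34) and Irf7, the factor that sustains interferon production (-0.83 ± 0.36), were lower as well. None passed the test. The 17 other lists had medians from -0.79 (cell cycle) to 0.20 (NRF2 targets and iron).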

How the data were processed

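Single-cell libraries of blood mononuclear cells from mice (2 chow, 2 HFD + L-NAME, 1 with NO2-OA) were used as UMI counts per gene and barcode, which the authors deposited as 10x matrices of 33696 genes made with Cell Ranger 7.1.0, per the file headers, on mm39, per the submitters' processing notes. The annotation is not given in the sources used here. The deposited matrices held 66693 barcodes, and each library 71216133 to 122022000 UMIs.

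The members and gene lists were chosen with earlier results of these data known. Members' UMIs were summed per library and fitted with edgeR 4.0.16 (filterByExpr, TMM, robust quasi-likelihood) over all 5 libraries together. DESeq2 1.42.0 was an alternative. The difference between monocyte classes was the interaction term of a fit over both. Predicted doublets (Scrublet) were kept. Leaving out members with a UMI of Camp, Ngp, Ltf, Ly6g, Retnlg, Cd3d, Cd3g, Trac, Trbc2, Gzma or Nkg7 was an alternative chosen after seeing the data; the others were leaving out single libraries, a replicate block, other filters, scalings, thinning, equal cell numbers and rule limits. Cells were thinned to 5000 UMIs for shares of cells with a UMI. Named genes were the 10 with the smallest p in each direction (5 for the interaction) among genes whose libraries did not overlap, at a mean log2 CPM of at least 4, without rule genes, gene models, ribosomal, mitochondrial, receptor-segment and sex-linked genes. From each list described, called members, else up to 4 with the smallest p and 2 with the highest mean, were named. Mt2, Mt1, Ccl5, Gm2682, Mmp8 and the further genes set beside a result were named after their values were seen. Intervals are exact at 95%. The models were tested on simulated data.

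The 2 sets seen in the file names carry replicate numbers 1 and 2, and the NO2-OA library belongs to the first. Deviations of same-numbered libraries correlated at 0.123 over 11166 genes, with only 2 pairs, and the number was not taken as a pairing. A correlation over all genes cannot show whether the sets differ for single genes. Cx3cr1 in members stood at 73.8, 44.6 and 43.9 CPM in the libraries of number 1 and at 238 and 155 in those of number 2. This difference was not tested. Some genes that met the naming rule are not reported here.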

Additional observations from a re-analysis of the deposited data

Results flagged for a closer look

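For 2 genes the effect of high-fat diet with L-NAME differed between classical and non-classical monocytes in edgeR's quasi-likelihood test of the difference itself. Retnlg differed by -5.05 on the log2 scale (adjusted p = 0.000605), and by 0.35 with predicted doublets left out and -0.33 without chow 1. Gm2682, a gene model, differed by -4.66 ± 0.63 (adjusted p = 0.039). It stood at 52.9 and 16.7 normalised CPM in classical monocytes of chow, 0.887 and 0 under the regimen and 18.0 in NO2-OA 1. In non-classical monocytes it stood at 24.8 and 11.5, 12.7 and 0.550, and 31.4. The difference was -3.04 with predicted doublets left out, when no gene was called in edgeR (452 genes at an unadjusted p under 0.05).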

How the results depend on the processing

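Counts of called genes depended on the settings more than directions did. Of the genes called for HFD + L-NAME against chow (3 in edgeR), 0 were called with equal cells per library, with relaxed lymphocyte limits, with members carrying other cell types' genes left out, with only the compared groups fitted and with thinned sums (350, 380, 390, 374 and 379 genes at an unadjusted p under 0.05). DESeq2 called 15 and no expression filter 107. Leaving out 1 library gave 0 to 228 calls: 228 without chow 1, 161 without chow 2, 109 without HFD + L-NAME 2, 8 without HFD + L-NAME 1 and 0 without NO2-OA 1. For NO2-OA against HFD + L-NAME (3), the counts were 0 with equal cells, with other-marker cells left out and with predicted doublets left out (161, 131 and 171 at an unadjusted p under 0.05), 24 with no filter and 38 with only the compared groups. They were 11 to 45 with 1 library left out (45 and 44 without chow 1 and 2, 13 and 11 without HFD + L-NAME 1 and 2). For the difference between classes (2), they were 0 in DESeq2 (124 at an unadjusted p under 0.05), 0 with doublets left out, 53 with no filter and 1 to 4 with 1 library left out (4 without HFD + L-NAME 1, 1 without NO2-OA 1). With the replicate number as a replicate block, 42 genes were called for HFD + L-NAME and 6 for NO2-OA. The log2 ratio of shares, -0.16, was 0.25 over monocytes, 0.55 within number 1 of the replicate block, and -0.80 to 0.28 with 1 library left out (0.11 without chow 2, 0.28 without HFD + L-NAME 2). For NO2-OA it was 0.82 to 1.89 (1.89 without HFD + L-NAME 1). Reversed single values were Cxcl1 for NO2-OA (-1.70 with equal cells) and Retnlg (0.35 with doublets left out). With 1 library left out, some list medians changed sign. For HFD + L-NAME the ranges were -0.141 (without HFD + L-NAME 1) to 0.393 for inflammasome genes, -0.0657 (without HFD + L-NAME 1) to 0.373 for pattern receptors, -0.0429 (without HFD + L-NAME 1) to 0.409 for NRF2 targets and -0.27 (without chow 2) to 0.418 for chemokines. For NO2-OA the range was -0.0349 (without HFD + L-NAME 2) to 0.56 for inflammasome genes. The other 261 values of list medians, counted per list and setting, kept their direction. Of the single-gene values, counted per gene and setting, 1352 kept direction and side of the threshold. Another 143 passed the threshold only in the alternative, and 30 no longer passed it. The causes were not tested. The 78 members of HFD + L-NAME 2 and the single NO2-OA library limit the precision.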
